A study of Mus musculus with 12 samples.

Results

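T cell clones that took up a larger share of the spleen repertoire than of the mesenteric lymph node (mLN) repertoire in the same mouse were collected from T cell receptor (TCR) beta chain libraries. A clone is a complementarity-determining region 3 (CDR3) nucleotide sequence, and its unique molecular identifier (UMI) counts were summed and divided by the library total. A clone was a member if it held at least 0.05% and 5 UMIs of the spleen library and if its spleen share was at least 4 times its mLN share, with a clone absent from mLN set to 1 UMI there. Of 1800 spleen clones that met the 0.05% and 5 UMI floor (the eligible clones), 257 were members (14.3%). Without KO replicate 3, whose mLN library was far smaller than the others, 210 of 1467 eligible clones were members (14.3%). Members were thus selected on their measured spleen and mLN shares, so these shares and their ratio within a mouse are given below as a description and were not tested. Genotypes were compared over mice on the number and share of members, which the rule itself defines. Members were tested against other clones only on measures that the rule did not use.

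The libraries came from Rag2–/– recipients, which have no T or B cells of their own, 6 weeks after they received naive CD4+CD25−CD44−CD62L+ T cells. Donor cells were Prkaa1 f/f (WT; replicates 1, 3 and 4) or Prkaa1 f/f CD4-Cre+ (KO; replicates 1, 2 and 3). Both donor genotypes thus carried the floxed allele of Prkaa1, the gene of the catalytic AMPKα1 subunit, and Cre under control of CD4 acts in the T cell lineage. The strain background was C57BL/6, and the study used mice of 6-8 weeks of age. A splenic and an mLN library that agreed in genotype and in the number of the replicate were treated as a pair from 1 animal, which gave 12 libraries from 3 WT and 3 KO mice. Only TCR beta sequences were measured, so neither T helper subset nor organ identity was checked against marker genes.

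The TCR beta CDR3 is made in the thymus by joining a V, a D and a J gene segment, with bases trimmed and added at the joints. Because the joint is nearly unique to each naive cell, its sequence serves as a tag for all descendants of that cell. Naive CD4+ T cells placed into a lymphocyte-deficient host divide strongly, partly in response to gut microbes, and spread through spleen, mLN and intestine. The mLN drains the intestine, whereas the spleen filters blood. A UMI counts an mRNA molecule, so more cells of a clone and more TCR mRNA per cell cannot be told apart.

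The depth was uneven. Totals ranged from 2488 UMIs in KO replicate 3 mLN to 493287 UMIs in WT replicate 3 spleen, and the other 10 libraries lay between these. In KO replicate 3 a single mLN UMI was 0.0402% of the library, so a spleen clone needed at least 0.161% to reach the ratio of 4, and 224 of its 333 eligible clones could not be members at any mLN count. The libraries also fell into 2 kinds by a technical measure, the share of 1-UMI clonotypes whose last 9 CDR3 bases were rare for their J segment (under 1% of its UMIs). This share was 2.42% to 5.67% in both libraries of WT replicate 1, both of KO replicate 1 and the mLN library of KO replicate 3, and 25.1% to 36.8% in the other 7 libraries. In KO replicate 3 the organs thus differed in kind as well as in depth, and the main counts and differences are therefore also given without this mouse.

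The sequences of the largest member of each mouse, and of the member with the highest spleen to mLN ratio, show how different the joints of these clones were. KO1-s2 and KO2-s10 are added as a second dominant clone and a clone both large and far from its mLN share. WT4-s34 is added as a joint in which the aligner left no base between V and J, and WT1-s5 as an out-of-frame joint. KO1-s22 is added as the member most frequent in another mouse. A name gives the mouse and the rank of the clone in its spleen library. Each CDR3 runs 5′ to 3′ from the cysteine codon of the V segment to the phenylalanine codon of the J segment. Capitals mark the bases between the parts that the aligner gave to V and J. They can hold D segment bases and added bases, but such bases may also lie in the lower case parts.

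WT1-s1: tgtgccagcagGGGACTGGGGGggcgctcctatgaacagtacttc

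WT1-s5: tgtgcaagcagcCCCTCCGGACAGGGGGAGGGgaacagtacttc

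WT1-s100: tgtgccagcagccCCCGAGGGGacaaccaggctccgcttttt

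WT3-s7: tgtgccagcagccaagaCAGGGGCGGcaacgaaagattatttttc

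WT3-s314: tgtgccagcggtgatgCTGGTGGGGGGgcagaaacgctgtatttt

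WT4-s1: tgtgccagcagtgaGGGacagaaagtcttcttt

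WT4-s34: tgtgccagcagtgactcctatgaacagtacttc

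WT4-s140: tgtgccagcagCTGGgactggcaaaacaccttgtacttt

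KO1-s1: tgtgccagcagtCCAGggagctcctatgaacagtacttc

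KO1-s2: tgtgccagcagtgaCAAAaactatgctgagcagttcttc

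KO1-s22: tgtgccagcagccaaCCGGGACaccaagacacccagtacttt

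KO1-s136: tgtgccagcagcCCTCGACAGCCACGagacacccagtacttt

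KO2-s6: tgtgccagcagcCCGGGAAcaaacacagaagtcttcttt

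KO2-s10: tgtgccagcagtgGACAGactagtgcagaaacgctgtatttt

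KO2-s68: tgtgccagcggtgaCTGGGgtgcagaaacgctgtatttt

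KO3-s6: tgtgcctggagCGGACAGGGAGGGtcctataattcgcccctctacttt

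KO3-s8: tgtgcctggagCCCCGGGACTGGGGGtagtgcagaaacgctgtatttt

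In 3 of the 6 mice the most abundant clone of the whole spleen was a member. WT1-s1 (TRBV13-3 with TRBJ2-7) held 1887 of 11271 spleen UMIs, or 16.7% (Wilson 95% interval 16.1% to 17.4%), against 301 of 11987 mLN UMIs, or 2.51% (2.25% to 2.81%), a ratio of 6.67. KO1-s1 (TRBV15, TRBJ2-7) held 9981 spleen UMIs (15.4%) and 819 mLN UMIs (3.45%), a ratio of 4.46. WT4-s1 (TRBV13-1, TRBJ1-1) held 33543 spleen UMIs (7.68%) and 1629 mLN UMIs (1.64%), a ratio of 4.69. These 3 clones ranked 4th, 4th and 5th in their mLN libraries, so they were large in both organs and only larger in spleen. The second clone of KO replicate 1, KO1-s2 (TRBV13-1, TRBJ2-1), was further apart, with 5740 spleen UMIs (8.85%) and 202 mLN UMIs (0.850%), a ratio of 10.4. All intervals in this report cover counting error only.

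The other 3 mice had no dominant member. The largest member of WT replicate 3, WT3-s7 (TRBV5, TRBJ1-4), ranked 7th in spleen with 6620 UMIs (1.34%) and 221 mLN UMIs (0.322%). In KO replicate 2, KO2-s6 (TRBV4, TRBJ1-1) ranked 6th with 2232 spleen UMIs (1.43%) and 398 mLN UMIs (0.312%). In KO replicate 3, KO3-s6 (TRBV31, TRBJ1-6) ranked 6th with 3256 spleen UMIs (1.47%) but only 5 mLN UMIs (0.201%, 0.0859% to 0.470%). A share based on 5 UMIs is known to no better than several-fold, and the ratio of this clone, 7.33, had an exact 95% interval of 3.14 to 22.6. Over all mice, 17 members held at least 1% of their spleen library and 15 were among the 10 most abundant spleen clones of their mouse, or 11 and 11 without KO replicate 3.

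**Figure D1:**
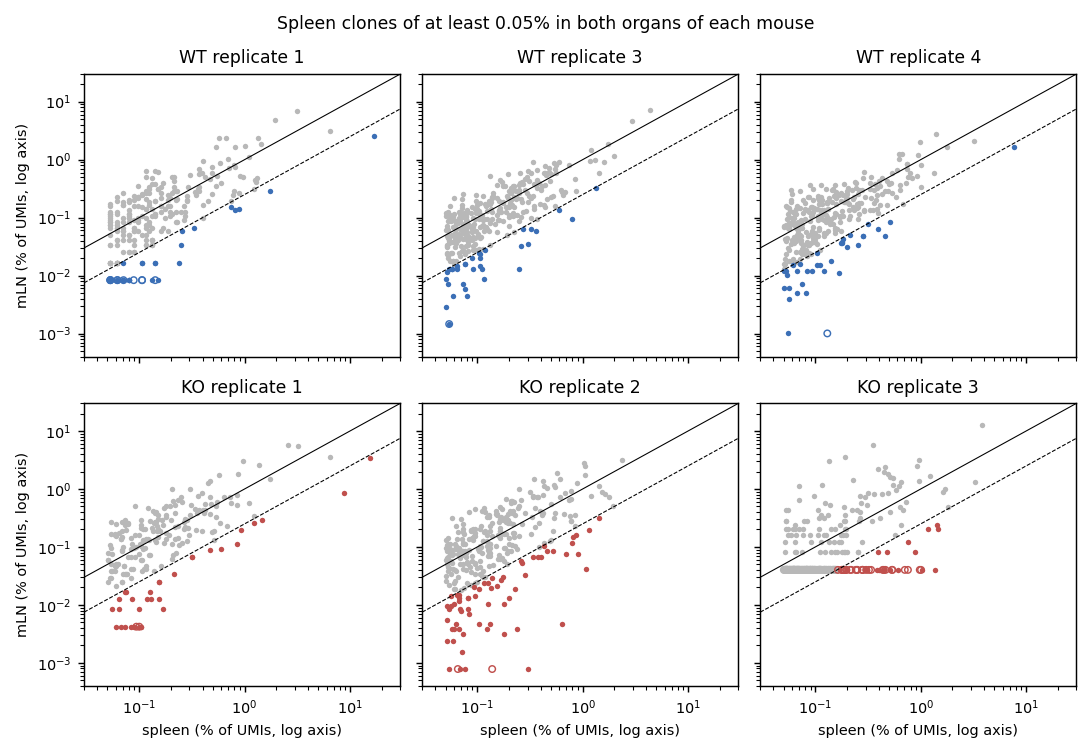
Share of spleen UMIs (x axis, log) against share of mLN UMIs (y axis, log) for every eligible spleen clone, 1 panel per mouse; members are blue (WT) or red (KO), other eligible clones are grey, open circles are clones absent from mLN and drawn at 1 UMI, the solid line marks equal shares and the dashed line the ratio of 4. In KO replicate 3 the lowest mLN value is 0.0402%, and 29 of its 47 members are open circles.

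The member with the highest ratio in each mouse differed in size between mice. KO2-s68 (TRBV13-2, TRBJ2-3) had 468 spleen UMIs (0.300%) and 1 mLN UMI, whereas equal shares would have given 383 mLN UMIs. Its ratio of 383 had an exact interval from 68.5 upward to 15170. WT4-s140 (TRBV14, TRBJ2-4) had 567 spleen UMIs (0.130%) and none among 99487 mLN UMIs, where 129 would have made the shares equal. WT3-s314 (TRBV13-2, TRBJ2-3) had 267 spleen UMIs (0.0541%) and none in mLN, against 37.1 at equal shares. In these 3 clones at most 1 mLN UMI was counted where equal shares would have given 37.1 or more. KO2-s144 and KO2-s30, both named after their values were seen, had ratios of 177 and 134. The smaller libraries left more doubt: the highest ratio in WT replicate 1, that of WT1-s100 (TRBV2, TRBJ1-5), rested on 17 spleen UMIs and 1 mLN UMI (ratio 18.1, 2.83 to 756), and in KO replicate 1, KO1-s136 (TRBV3, TRBJ2-5) had 68 and 1 UMIs (ratio 24.9, 4.32 to 998). In KO replicate 3 the highest ratio was that of KO3-s8 (TRBV31, TRBJ2-3), with 3036 spleen UMIs (1.37%) and 1 mLN UMI (ratio 34.2, 6.13 to 1351).

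A clone could be both large and well measured in each organ. KO2-s10 (TRBV13-1, TRBJ2-3) was the 10th clone of its spleen with 1684 UMIs (1.08%), and it had 53 mLN UMIs (0.0415%), a ratio of 26.0 (19.8 to 34.9). KO2-s14 (TRBV5, TRBJ2-1) had 1413 spleen UMIs (0.906%) and 98 mLN UMIs (0.0768%), a ratio of 11.8. WT4-s34 (TRBV13-3, TRBJ2-7) had 1993 spleen UMIs (0.456%) and 48 mLN UMIs (0.0482%), a ratio of 9.46. By comparison, the 4 most frequent members of each of the 3 WT mice had ratios between 4.16 (WT3-s7) and 9.46 (WT4-s34). Those of the 3 KO mice had ratios between 4.46 (KO1-s1) and 34.2 (KO3-s8, with 1 mLN UMI). Among these KO clones, KO1-s2, KO2-s10, KO2-s14 and KO3-s8 lay above the WT range and the others within it. The exact intervals of KO3-s8 (6.13 to 1351) and KO1-s2 (from 9.04) began within the WT range. The rule selected on this ratio, and single clones do not stand for mice. These ranges therefore describe the named clones only, and a difference in ratio between genotypes was not tested.

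**Figure D2:**
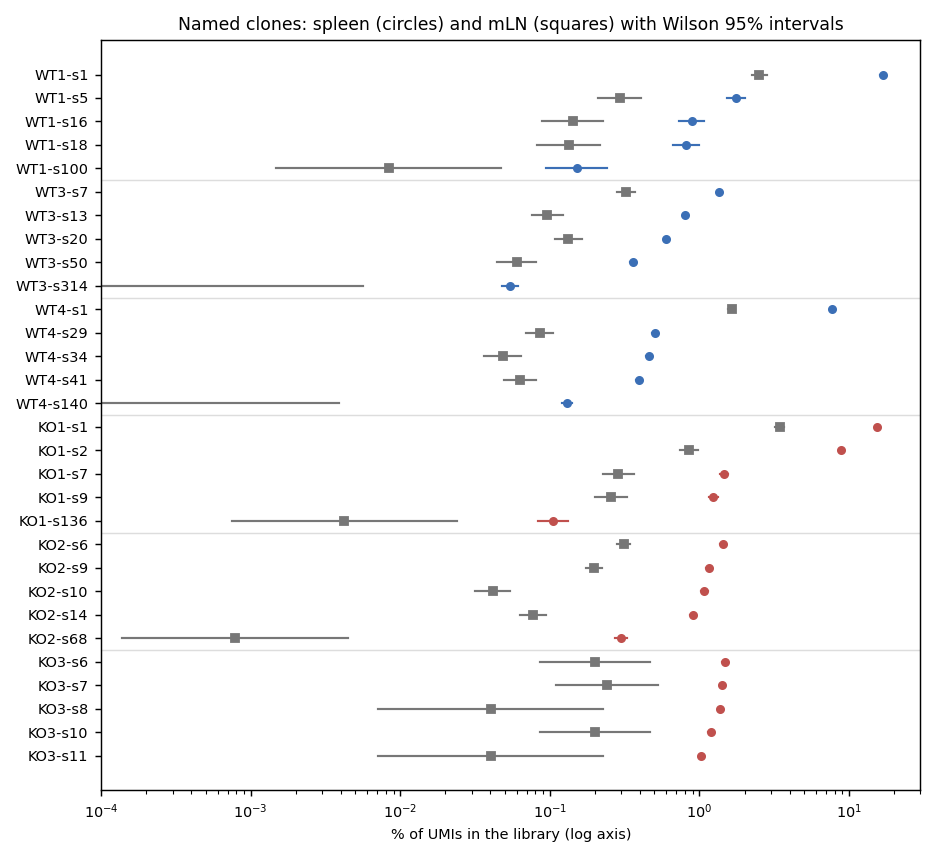
Shares of spleen UMIs (colored circles; WT blue, KO red) and mLN UMIs (grey squares) on a log axis for the 4 most frequent members of each mouse and the member with the highest ratio among the others, with Wilson 95% intervals; a grey line without a square is a clone with no mLN UMI, and its interval is cut at the left edge of the axis. The largest clone, WT1-s1, lies at 16.7% in spleen and 2.51% in mLN, and the mLN intervals are widest in KO replicate 3.

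Across all members the median ratio was 6.98 and the median spleen share 0.138%, and 82 members had a ratio of 10 or more (6.89, 0.105% and 66 without KO replicate 3). In mLN, 45 members were absent and 116 had fewer than 5 UMIs, but KO replicate 3 contributed 29 and 44 of these, so 16 and 72 remained without it. The exact 95% interval of the ratio lay wholly at or above 4 for 102 members (96 without KO replicate 3) and wholly above 1 for 250 (204). Since members were chosen for a high ratio, these intervals describe the precision of the counts and are not a test of the ratio. The ratio of 4 did not fall into a gap between groups of clones. In KO replicate 2 the member nearest the limit had a ratio of 4.004 and the nearest clone outside it 3.99. In KO replicate 3 both neighbors had no mLN UMI and were separated by spleen counts of 362 and 353 alone. In the other 4 mice the pair of neighbors lay between 4.09 and 4.39 inside and between 3.91 and 3.99 outside.

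Members were found in every mouse in similar numbers, with more in KO replicate 2. There were 37, 35 and 36 members in WT replicates 1, 3 and 4 and 35, 67 and 47 in KO replicates 1, 2 and 3. As a share of eligible spleen clones this was 14.2%, 10.3% and 11.1% for WT mice and 16%, 20.7% and 14.1% for KO mice. The part of the spleen repertoire they made up varied more, at 24.4%, 6.50% and 13.2% of UMIs for WT mice and 33.0%, 16.8% and 23.0% for KO mice. The same clones held 1.14% to 5.73% of the mLN libraries. The order of the mice followed in part from single clones. WT1-s1 alone made up 68.6% of the member UMIs of WT replicate 1, WT4-s1 58.4% of those of WT replicate 4 and KO1-s1 46.6% of those of KO replicate 1. Without the largest member of each mouse, members held 7.65%, 5.16% and 5.48% of spleen UMIs in the WT mice and 17.6%, 15.4% and 21.5% in the KO mice. By this measure the genotypes did not overlap, also without KO replicate 3, whereas with all members kept they did. The measure was computed after the values were seen and removes clones for their size. It also sums spleen shares that the rule selected on, so it was not tested. All eligible clones together held 87.1%, 75.8% and 74.6% of spleen UMIs in WT replicates 1, 3 and 4. In KO replicates 1, 2 and 3 they held 87.1%, 78.3% and 77.6%.

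To ask whether loss of AMPKα1 changed how much of the spleen repertoire was concentrated there, the genotypes were compared over mice. Members held a mean of 14.7% ± 9.04 of the spleen UMIs of WT mice and 24.3% ± 8.18 of those of KO mice (SD, n = 3 per genotype), a difference of 9.57 percentage points, and the ranges overlapped (two-sided exact permutation test, p = 0.3, Benjamini-Hochberg adjusted p = 0.3 over 2 comparisons). As a share of eligible clones, members made up 11.9% ± 2.04 in WT and 16.9% ± 3.38 in KO, a difference of 5.05 points with overlapping ranges (exact permutation p = 0.2, adjusted p = 0.3). With 3 mice against 3, the smallest p this test allows is 0.1, so neither comparison could pass 0.05. KO was higher on both measures among mice whose libraries were of the same kind in both organs, by 8.61 and 1.81 points between WT replicate 1 and KO replicate 1 and by 6.96 and 9.96 points between the mean of WT replicates 3 and 4 and KO replicate 2. Without KO replicate 3 the differences were 10.2 and 6.46 points. With every mouse included, the single values of the genotypes overlapped on both measures. For the share of eligible clones this overlap rested only on KO replicate 3 (14.1%) against WT replicate 1 (14.2%). In KO replicate 3, 224 of 333 eligible clones could not be members at any mLN count. Without this mouse the KO shares of eligible clones lay above all WT shares (exact permutation p = 0.2). The shares of spleen UMIs still overlapped without it. In both cases, 3 or fewer mice per genotype are too few for this test to show a difference or its absence.

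The number of clones past the rule was also counted at equal depth. When all 12 libraries were thinned to 2488 UMIs (mean of 20 draws), 19.6, 23.0 and 23.9 clones passed in WT replicates 1, 3 and 4 and 18.5, 33.2 and 56.9 clones in KO replicates 1, 2 and 3. Of the members found at full depth, 9.30, 7.65 and 9.80 still passed in the WT mice and 10.7, 20.7 and 38.7 in the KO mice. At this depth 5 UMIs are about 0.2% of the library, so smaller clones were often lost, and the rest of those that passed were not members at full depth. The share of eligible clones that passed rose to between 19.4% and 27.9% in the 5 mice other than KO replicate 3, where it was 51.3%. The share of spleen UMIs moved less, to 26.8%, 8.95% and 14.6% for WT mice and 32.5%, 17.2% and 27.6% for KO mice. KO replicate 3 therefore had the most clones past the rule at equal depth, although its spleen and mLN libraries were of different kinds, and whether the kind plays a part in its count was not tested.

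**Figure D3:**
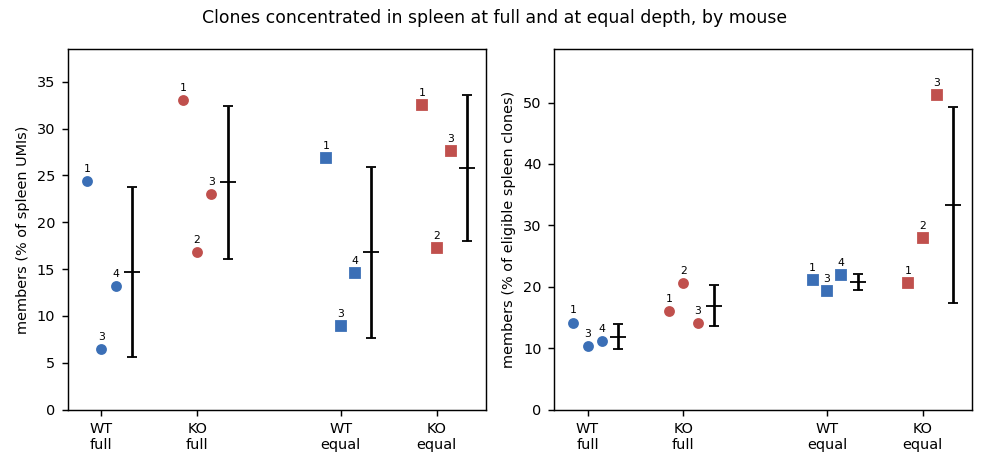
Share of spleen UMIs held by members (left) and share of eligible spleen clones that were members (right) for each mouse, with the replicate number beside each point, at full depth (circles) and with all libraries thinned to 2488 UMIs (squares, mean of 20 draws); black marks give the mean and SD of 3 mice. WT and KO ranges overlap at full depth in both panels, and KO replicate 3 stands at 51.3% of eligible clones at equal depth.

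What the members shared beyond the rule was examined by comparing them with the other 1543 eligible spleen clones within each mouse. The CDR3 was 30 to 54 nucleotides long among members, with a median of 42. The mean over mice was 41.8 ± 0.850 nucleotides in members and 41.2 ± 0.105 in the others (SD, n = 6), and members were longer in 5 of 6 mice (p = 0.1875 by a two-sided exact sign-flip test, with p = 1 after adjustment). The stretch between V and J measured 8.85 ± 0.564 nucleotides in members and 8.45 ± 0.279 in the others (exact p = 0.25, adjusted p = 1). Without KO replicate 3 these differences were 0.653 and 0.548 nucleotides. In 9 members, such as WT4-s34, the aligner left no base between V and J. This count includes V and J alignments that overlap, such as that of KO1-s158 (gap of −5). It therefore does not show that no base was inserted. The aligner assigned TRBD1 to 109 members, TRBD2 to 69 and no D segment to 79. A missing assignment does not mean that a joint holds no D bases. Hydropathy of the central CDR3 residues averaged −1.31 and −1.29 on the Kyte-Doolittle scale in members and others. None of the 9 features compared passed the test, in which an unadjusted p under 0.05 needs all 6 mice to deviate the same way. All 9 adjusted p-values of the exact sign-flip test were 1.

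Out-of-frame or stop-containing joints cannot make a receptor, but are transcribed in T cells that carry a productive joint on the other chromosome. Of the members, 16 were nonproductive, of which 1 contained a stop codon. WT1-s5 (TRBV16, TRBJ2-7) was the largest, with 197 spleen UMIs (1.75%) and 35 mLN UMIs (0.292%), and its 44 nucleotides are not a multiple of a codon. WT replicate 1 held 8 of the 16, KO replicate 2 held 4, and KO replicate 3 held none. The productive share was 93.5% ± 7.73 in members and 94.4% ± 1.05 in the other eligible clones (SD, n = 6), with 78.4% against 94.2% in WT replicate 1 and 94.0% to 100% among members of the other 5 mice. The difference was −0.886 percentage points over 6 mice and −2.11 without KO replicate 3.

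V and J segment usage was broad. Members used 23 V and 12 J segments of the TCR beta locus on mouse chromosome 6 (chr6:40891296-41558371 from TRBV1 to TRBV31 in the RefSeq annotation of GRCm38.p6, since the clonotype tables carry no coordinates). TRBV5 (chr6:41062359-41062803) was the most frequent V segment with 33 members, followed by TRBV13-2 with 23, TRBV16 with 22, TRBV13-1 with 21, and TRBV3 and TRBV31 with 19 each. TRBJ2-7 (43), TRBJ2-1 (37), TRBJ1-1 (33) and TRBJ2-5 (31) were the most frequent J segments. The most frequent V-J pairs, TRBV5 with TRBJ1-1 and TRBV5 with TRBJ2-5, had 6 members each, from 3 and 5 mice. Members thus did not derive from a single V-J pair in any mouse.

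Clones per segment were compared between members and the other eligible clones with the mouse as a block. By edgeR's quasi-likelihood test with Benjamini-Hochberg adjustment, 0 of 21 V segments differed (background share called 0%) and 0 of 12 J segments differed (0%), while 3 V segments and 0 J segments had an unadjusted p under 0.05. DESeq2 also called 0 V and 0 J segments. The smallest p belonged to TRBV20 (chr6:41188273-41188977), with 2 members, KO2-s64 and KO3-s104, among 55 eligible clones. Its share was 0.603% ± 0.956 of members and 3.33% ± 0.996 of the others (SD, n = 6), lower among members in 6 of 6 mice (log2 fold change −1.96, SE 0.67, edgeR adjusted p = 0.158). Without KO replicate 3 this value was −2.60 on the log2 scale (edgeR, adjusted p = 0.151), and again 0 V and 0 J segments were called. No WT mouse had a TRBV20 member. TRBV16 (chr6:41151791-41152230) made up 9.19% ± 4.13 of members and 4.65% ± 0.727 of the others, higher in 5 of 6 mice (log2 0.90, SE 0.31, edgeR adjusted p = 0.158). TRBV1 (chr6:40891296-40891885) made up 4.96% ± 4.10 and 9.46% ± 1.70 (log2 −0.78, SE 0.36, edgeR adjusted p = 0.261). TRBV16 and TRBV1 were added after their values were seen. Among J segments the smallest p was that of TRBJ2-1 (chr6:41542754-41542803), with 14.9% ± 5.76 of members and 10.04% ± 2.11 of the others (log2 0.55, SE 0.28, edgeR adjusted p = 0.624). The standard errors of these fold changes show that modest differences in usage were not detectable with 257 members.

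**Figure D4:**
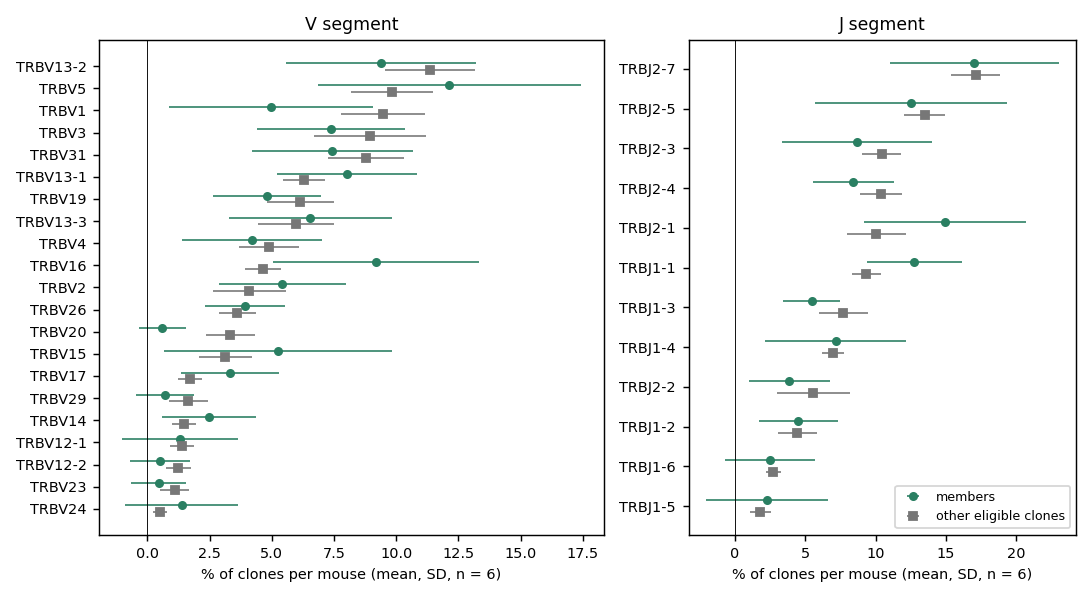
Usage of V segments (left) and J segments (right) among members (green circles) and other eligible spleen clones (grey squares), as the mean percent of clones per mouse with the SD over 6 mice; bars of rare segments reach below 0 because the SD exceeds the mean. TRBV20 has the lowest usage in members relative to the others (0.603% against 3.33%), and TRBV16 is at 9.19% against 4.65%.

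All 257 member sequences were distinct, so no nucleotide sequence, and also no amino acid sequence, was a member in 2 mice. Nevertheless, 102 members (63 without KO replicate 3) were detected in at least 1 library of another mouse, mostly at a trace level. Of these 141 detections, 107 were of at most 3 UMIs. The most abundant was KO1-s22 (TRBV5, TRBJ2-5), which held 387 UMIs (0.596%) in its own spleen and 22 UMIs (0.0926%) in its own mLN. The same sequence had 145 UMIs (0.0294%) in the spleen and 63 UMIs (0.0919%) in the mLN of WT replicate 3, so in that mouse the sequence was more frequent in mLN than in spleen. The members detected elsewhere were at least 6.49 times more frequent in their own spleen than in the other library. For members not detected elsewhere, the limit depends on the depth of the other library.

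These detections were mostly within genotype, and they gathered in particular libraries. Among other mice, members of WT replicate 3 were found only in WT replicate 4 spleen (11 members). Members of KO replicate 2 were found in KO replicate 3 spleen (13) and WT replicate 4 spleen (1). The sequence was found in a mouse of the same genotype for 100 members and in a mouse of the other genotype for 10, and 128 of the 141 detections were within genotype, although each mouse has only 2 companions of its own genotype and 3 of the other. Without members of KO replicate 3 the numbers were 61 and 8 of 210 members. Among the other eligible clones, 600 of 1543 were found within and 98 across genotypes. The within-genotype share was 38.9% in both sets with all 6 mice, and 29.0% of members against 35.4% of the others without clones of KO replicate 3. The link was closest between KO replicate 3 and the mLN library of KO replicate 2, where 39 of 47 members of KO replicate 3 were found with 236 UMIs in all, a median of 4 and at most 30. Of the 62 other clones of KO replicate 3 that were large enough to pass the rule, 53 were in that library as well (85.5%, against 83.0% of members). The cause of this pattern was not tested. The share of members found in another mouse differed from that of the other eligible clones by −1.26 percentage points over 6 mice (exact sign-flip p = 0.84375, adjusted p = 1) and by −6.92 points without KO replicate 3.

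Convergent joints, in which another nucleotide sequence in the same mouse encodes the same CDR3 amino acids, were found for 45 members. The share among productive members was 18.7% ± 15.0 and that among productive other clones 21.9% ± 15.1 (SD, n = 6). It was 0% and 5.88% among members of WT replicate 1 and KO replicate 1, whose libraries were of the kind with few rare J ends, and 12.7% to 37.1% in the other 4 mice. The partner sequences were small, and many were seen as a single UMI, such as the partner of WT3-s7 (6620 spleen UMIs). Whether such partners were separate joints or sequencing errors was not tested. For only 1 of the 45 members was a partner itself an eligible spleen clone. This member was WT4-s300, with 244 spleen UMIs (0.0559%) and 6 mLN UMIs (0.00603%), which had 2 partners. The larger partner held 0.0728% of spleen and 0.0874% of mLN UMIs, so it was not concentrated in spleen. Without KO replicate 3, 34 members had a convergent partner. A clone at least 10 times as abundant at a single mismatch in the same library was found for no member, and also for none of the other eligible clones. Partner sequences below the eligible floor were not checked in this way.

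Concentration also occurred in the other direction. By the mirrored rule, 242 of 1677 eligible mLN clones were concentrated in mLN (205 of 1577 without KO replicate 3). There were 69 of 323, 7 of 317 and 35 of 337 eligible mLN clones in WT replicates 1, 3 and 4 and 59 of 287, 35 of 313 and 37 of 100 in KO replicates 1, 2 and 3. As a share of eligible clones, members were the more frequent set in WT replicates 3 and 4 and KO replicate 2. They were the less frequent set in WT replicate 1 and KO replicates 1 and 3. The order in KO replicate 3 depends on depth, since 224 of its 333 eligible spleen clones could not be members. Of the clones large enough to pass there, 47 were members and 62 were not. WT replicate 3 had 35 members of 339 eligible spleen clones against 7 mLN-concentrated clones. A sequence of an mLN-concentrated clone was found in another mouse in 17.0% ± 14.5 of cases, compared with 40.1% ± 22.1 for members (SD, n = 6). The other eligible spleen clones stood at 41.4% ± 11.5, so this level was not particular to members. Members had a higher share than mLN-concentrated clones in 6 of 6 mice. This comparison was chosen after the data were seen, and its adjusted p of 0.28125 (exact sign-flip test) is the smallest that a single feature among 9 can reach with 6 mice.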

How the data were processed

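According to the study's methods, the authors sorted T cells from spleen and mLN, made UMI-tagged cDNA by 5′ RACE from constant-region primers, sequenced it on a MiSeq, grouped UMIs with MIGEC and ran MiXCR with default settings. Versions, V-J reference and reads per UMI are not given in the sources used here. The deposited clone count was read as UMIs. Shares were computed from these counts over the library total, without the deposited clone fraction. The authors downsampled before their analysis, but the deposited tables are not downsampled. Merging of UMIs or similar sequences can change small counts.

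Counts were summed per CDR3 nucleotide sequence with Python 3.11.15 and pandas 2.3.3. Intervals are Wilson (shares) or exact conditional (ratios), at 95%. Genotypes were compared by exact permutation over mice, sequence features by exact sign-flips of within-mouse differences (64 patterns, SciPy 1.17.1), and segments with at least 10 clones by edgeR 4.0.16 with DESeq2 1.42.0 as an alternative. The edgeR step was tested on simulated data. Named clones were the 4 members highest in spleen per mouse, the highest ratio among the others and the neighbors of the ratio limit; other named clones and segments were chosen after their values were seen. The members and lists were chosen with earlier results of these data known. Nothing in the sources says whether the mice of a group shared donors. Of 35 V and J segments used by members, 34 matched the RefSeq annotation. Alternatives covered the ratio, the spleen floor, the value for absent clones, the clone definition, 1-UMI clonotypes, productive clones, depth and each mouse left out.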

Additional observations from a re-analysis of the deposited data

Results flagged for a closer look

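In WT replicate 1 the productive share of members was lower than that of the other eligible clones by more than in any other mouse (difference −15.8 percentage points). In the other 5 mice it ran from −0.780 to 5.24 points. The gap to the nearest mouse was 0.714 of the whole range, above Dixon's 95% critical value for 6 values. In KO replicate 2 the convergent share of members differed from that of the others by −18.0 points, with −3.79 to 3.92 in the other 5 mice and a gap of 0.648 of the range. Chance alone puts about 1 in 20 such sets of values past this limit, and 13 sets were examined.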

How the results depend on the processing

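Of 233 values recomputed for 15 results, 214 kept their sign or count and 19 changed sign. The kept values overstate stability. The difference in clones with a far more abundant neighbor at a single mismatch was 0 in every setting run. Defining clones by CDR3 with V and J returned the main values of the genotype differences and features unchanged. For the genotype differences and single features the design is too small to pass the adjusted threshold, so their p-values say nothing about stability. Both genotype differences stayed positive under every alternative run, but the difference in the share of eligible clones moved from 5.05 points to 19.2 with a spleen floor of 0.5%, 17.0 with both organs of a mouse at the smaller total and 12.5 with all libraries at the smallest total. Leaving out single mice gave 5.20 to 14.4 points for spleen UMIs and 3.18 to 6.46 for eligible clones.

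The TRBV13 family share difference (0.326 points) became −2.08 at a ratio of 2, −0.469 at a spleen floor of 0.1%, −0.402 for productive clones and −7.70 against mLN-concentrated clones, a comparison chosen after seeing the data. The hydropathy difference (−0.015) became 0.0342 at a ratio of 2 and 0.0159 against mLN-concentrated clones, the productive share difference (−0.886 points) 0.556 at a ratio of 8, and the TRBJ2 cluster share difference (−1.62 points) 1.12 at a floor of 0.1% and 1.60 against mLN-concentrated clones. Against the latter the convergent share difference was 1.53 and the other-mouse share difference 23.1 points. Without single mice the ranges were −2.11 to 2.10 (productive), −1.41 to 1.45 (TRBV13), −6.92 to 1.8 (other mouse) and −0.0497 to 0.00436 (hydropathy). The causes were not tested.

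WT and KO mice have only replicate numbers 1 and 3 in common, and these are different animals. A replicate block over these numbers gave differences of 12.5 and 2.8 points (exact sign-flip p = 0.5 each, which 2 pairs cannot lower), and every V and J alternative kept 0 calls. Equal-depth values were computed for the genotype differences only. The main limits are 3 mice per genotype, uneven depth and the small mLN library of KO replicate 3. Small mLN counts leave single ratios uncertain, and ratios selected as high tend to be overestimates.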
